A study of Mus musculus with 12 samples.

Results

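The genes described here are 34 genes of fibroblasts and their extracellular matrix, read in 12 RNA sequencing libraries of mouse embryonic stem cells. They were chosen by symbol, and all 34 were found among the 22753 genes of the count table. By their roles they comprised 5 fibrillar collagens, 4 collagens of types VI and XII, 3 small leucine-rich proteoglycans, 3 fibulins and fibrillin, 3 lysyl oxidases, 6 glycoproteins and matricellular proteins, 2 CCN proteins, 3 cell surface proteins, 3 transcription factors, 1 cytoskeletal protein and 1 growth factor. Of these, 32 passed the filter on low counts. The proteoglycan Lum and the surface protease Fap did not. Both were at 0 counts in 4 libraries and reached at most 11 and 6 counts in any library.

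The cells were clones 4 and 10 of embryonic stem cells from Sphk1fl/fl Sphk2-/- mice, named for the genes of both sphingosine kinases. All 4 groups, the controls included, were labelled Sphk2-/- and had been given 6 uM 4-hydroxytamoxifen for 48 hours. Cells were then sorted on Cre-GFP into GFP- cells, labelled Sphk1fl/fl Sphk2-/-, and GFP+ cells, labelled Sphk1-/- Sphk2-/-, with 3 libraries from each sort gate of each clone. Each line is 1 clone, and the promoter that drives Cre is not given in the sources used here, nor is it said whether the replicates were separate cultures, so p-values measure only the spread between these libraries. Passage numbers on the labels ran from 11 to 20, and replicate 1 of every group was at passage 11 or 12. In 5 of the 6 pairs of same-numbered libraries of a clone, the labels put the GFP-positive cells 1 passage after their GFP-negative partner, so in those pairs passage and gate cannot be told apart. The medium held leukemia inhibitory factor and serum, and the growth protocol on the labels makes no mention of feeder cells.

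Fibroblasts and other stromal cells build the interstitial matrix. They secrete fibrillar collagens, which lysyl oxidases cross-link and small proteoglycans space apart, and they lay down fibronectin, fibulins and periostin around these fibers. Embryonic stem cells make some matrix of their own, mainly fibronectin, laminins and type IV collagen, and they are often grown on a layer of embryonic fibroblasts. Their differentiating offspring can turn on the same mesenchymal genes. Sphingosine 1-phosphate, the product of the sphingosine kinases, acts through surface receptors on the actin cytoskeleton and on YAP, for which Ctgf and Cyr61 are widely used target genes.

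The libraries held 12968916 to 34258395 counts. Pou5f1, which defines the embryonic stem cell state, was at 944 to 2941 CPM, a unit in which the count of a gene is scaled to the total of its library. Nanog, another pluripotency factor, was at 314 to 1021 CPM, so the labelled cell type showed its markers in every library. Sphk1 was at 0.694 to 4.30 CPM, with overlapping gates, and Sphk2 at 1.19 to 8.34 CPM in libraries all labelled null for it. No source used here gives the deleted part of either gene, and reads outside them would be counted, so these levels do not check the labels. With same-numbered libraries of a clone held as pairs in a block, the change of Sphk1 between gates was -0.61 (log2, adjusted p = 0.166 by edgeR). Clone 10 GFP-negative replicate 1 stood apart, with the fewest counts, the lowest mitochondrial share (0.143% against 0.594% to 2.32% in the others) and the highest Pou5f1. Counts of calls, and the changes of members whose call turned on its pair, are given with and without it.

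The members together took 0.141% to 0.690% of all counts. Per kilobase of exon, which allows levels of different genes to be compared, Sparc was the most abundant member at a mean of 178 CPM per kb. Fn1 followed at 88.3, Thbs1 at 49.0, Vim at 47.8, Ctgf at 43.0, Fstl1 at 36.9 and Cyr61 at 34.6. Among the collagens Col1a1 was the most abundant, at 10.1 CPM per kb. The lowest tested members were Dcn at 0.375 and Col6a3 at 0.456, above Lum at 0.0618 and Fap at 0.0147.

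Most members varied widely between libraries. Over the 12 libraries the median member spanned 3.86 log2 units from its lowest to its highest library, a 14.5-fold range, against 1.63 log2 units, or 3.10-fold, for the median of all 15179 genes tested. Without clone 10 GFP-negative replicate 1 these ranges were 11.4-fold and 2.65-fold, an alternative added after the data were seen. Thbs1, a secreted glycoprotein that binds matrix and cell surfaces, had the widest span of the members, 6.53 log2 units, from 9.72 to 1123 CPM. Col1a2, Postn, Thbs2 and Lox were among the others that spanned more than 5 log2 units. A few did not share this spread. Sparc spanned 0.93 and Twist1 1.10 log2 units, and only 15.0% and 23.6% of all tested genes had a smaller span than these.

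**Figure D1:**
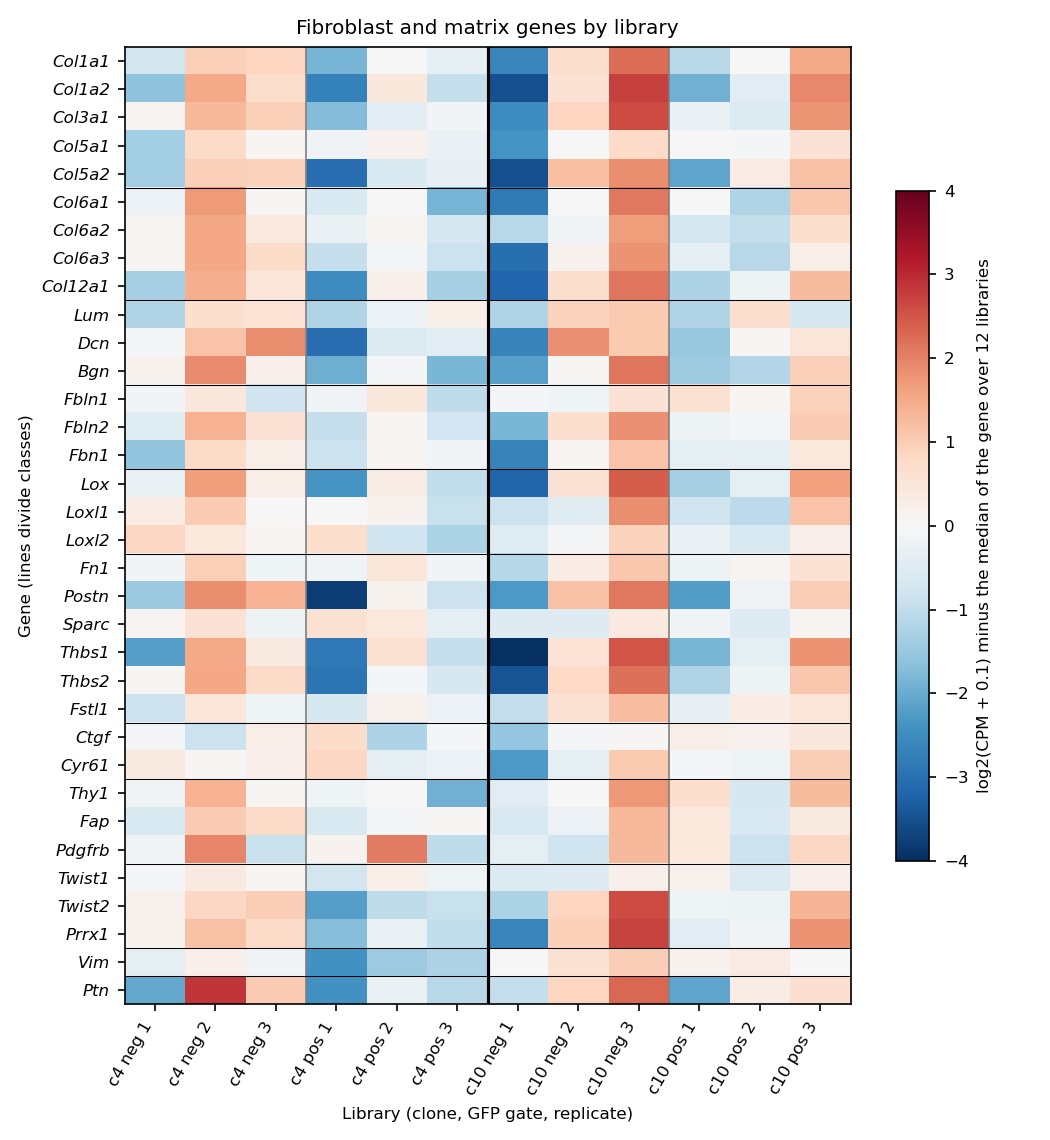
Level of each of the 34 genes in each of the 12 libraries, with rows grouped by role and columns by clone, gate and replicate. Colors give log2 of CPM plus a pseudocount of 0.1, minus the median of the gene over the libraries. Ranked instead by log2 CPM on effective library sizes, clone 10 GFP-negative replicate 3 is highest for 25 of the 32 tested members. Clone 10 GFP-negative replicate 1 is lowest for 16 on that scale.

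Much of this variation followed the library rather than the gate. Ranks of libraries here use log2 CPM on effective library sizes, and some of them differ by CPM. Clone 10 GFP-negative replicate 3 had the highest level of 25 of the 32 tested members, against 7.05% of all genes. The other library of that pair, GFP-positive replicate 3, came second by the mean log2 CPM of the tested members in clone 10. Clone 10 GFP-negative replicate 1 had the lowest level of 16 members (21.3% of all genes). Clone 4 GFP-positive replicate 1 had the lowest of a further 7 (4.49% of all genes). By CPM, Bgn of those 7 was instead lowest in clone 10 GFP-negative replicate 1. Within each of the 4 groups, replicate 1 was the lowest of the 3 libraries for 17 members, against 10.3% of all genes. Those 17 included Col1a1, Lox, Bgn, Thbs1, Postn, Prrx1 and Ptn. Replicate 1 was also the earliest passage of each group, and replicate number and passage cannot be told apart here.

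In clone 4 the mean log2 CPM of the 32 members was 4.01, 5.49 and 4.84 in GFP-negative replicates 1 to 3 and 3.14, 4.37 and 3.77 in the GFP-positive replicates. The GFP-positive library was the lower in each of the 3 pairs, although the groups overlapped. In clone 10 the same mean was 2.82, 4.94 and 6.09 in the GFP-negative and 3.83, 4.25 and 5.34 in the GFP-positive replicates, so the GFP-positive library was lower in replicates 2 and 3 and higher in replicate 1. The group means were 4.78 ± 0.74 and 3.76 ± 0.62 (SD, n = 3) for the GFP-negative and GFP-positive libraries of clone 4, and 4.61 ± 1.66 and 4.47 ± 0.78 (SD, n = 3) for those of clone 10. The difference between gates was larger than the SD of either group in clone 4 and smaller than either SD in clone 10.

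**Figure D2:**
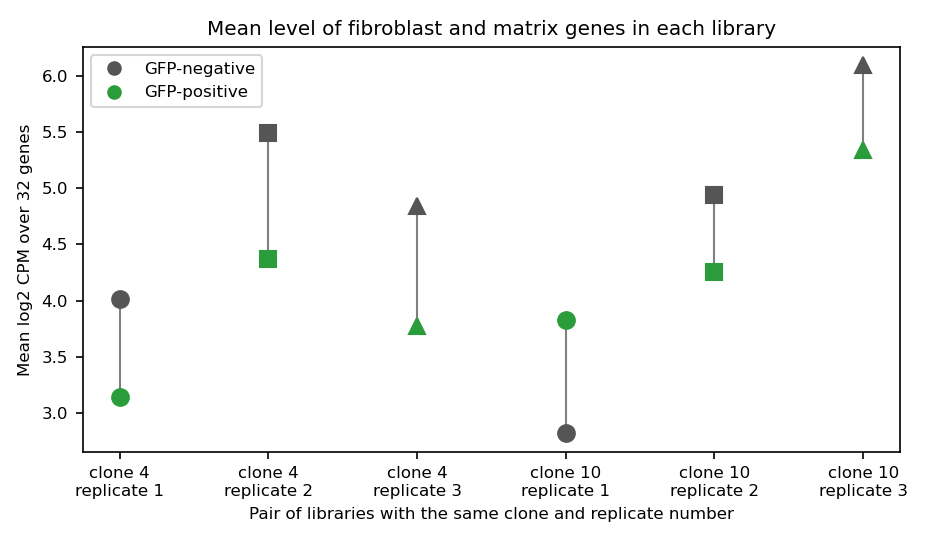
Mean log2 CPM of the 32 tested members in each library, by clone and gate, with lines joining the GFP-negative and GFP-positive library of each pair (equal clone and number). Lines fall in 5 of the 6 pairs and rise from 2.82 to 3.83 in clone 10 replicate 1.

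Same-numbered libraries of a clone deviated together from their groups, as described under the processing, so gates were compared both over groups and within these 6 pairs. Most members were lower in GFP-positive cells in 5 of the pairs. In clone 4, GFP-positive cells had the lower level of 25, 30 and 30 of the 32 members in replicates 1, 2 and 3, with a median log2 difference of -0.59, -1.26 and -1.18. In clone 10 the counts were 29 and 30 of 32 in replicates 2 and 3, with a median of -0.78 in each. Clone 10 replicate 1 went the other way, with 5 members lower by effective library size and a median of 1.07. Of all genes, 46.7% to 53.6% were lower in GFP-positive cells of a pair, with medians between -0.03 and 0.07.

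**Figure D3:**
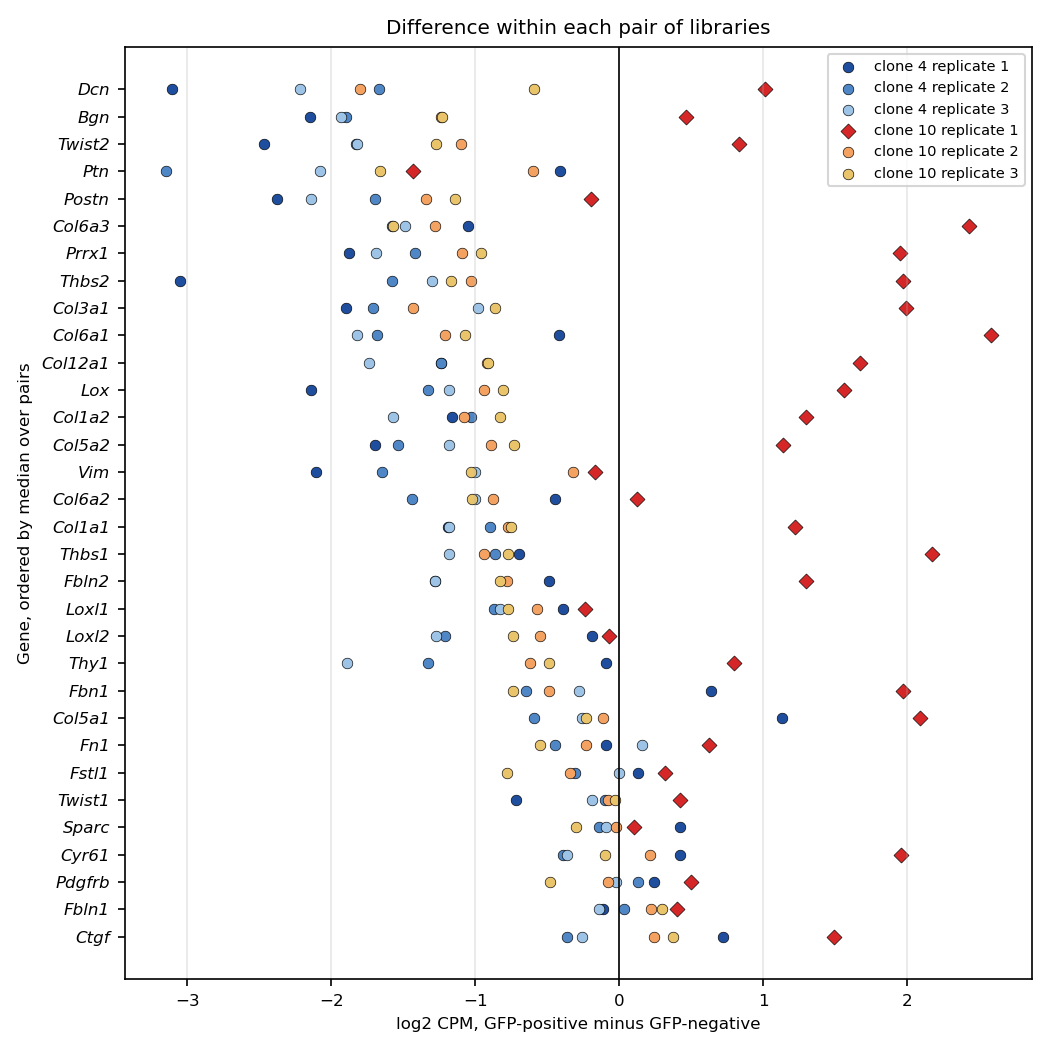
Log2 difference in level between the GFP-positive and GFP-negative library of each of the 6 pairs, with a point for each tested member. Most points lie below 0 in 5 pairs and above 0 in clone 10 replicate 1, where 5 of 32 are below.

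Tested over groups with edgeR's quasi-likelihood test and Benjamini-Hochberg adjustment, none of the 32 members was called at an adjusted p under 0.05 for the mean of both clones (0.00659% of all genes were called lower). DESeq2 called 1 member, Vim (0.0660% of all genes called lower), and 6 members had an unadjusted p under 0.05 in edgeR, against 6.77% of all genes. With the pair as a block, 7 members were lower in GFP-positive cells and none was higher, while 0.850% of all genes were called lower and 2.51% higher. The 7 were Postn, Vim, Bgn, Ptn, Loxl1, Twist2 and Dcn. The members' median was -0.74 with the block and -0.90 without it, against 0.00 and -0.01 for all genes, and 27 of 32 members were below 0 in either fit. The median without the block rested partly on single libraries, at -0.32 when clone 10 GFP-negative replicate 3 was left out and -1.29 when its GFP-positive partner was. In bulk RNA, fewer cells of a type and less RNA per cell cannot be told apart.

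Without the pair of clone 10 replicate 1, 21 members were lower and none higher in the fit with the block, beside 2.64% of all genes called lower and 3.72% higher. Most members were higher in GFP-positive cells in the pair of clone 10 replicate 1, so leaving it out takes away the differences that went the other way. Leaving out any other pair left 2 to 4 members called, all lower, beside 0.130% to 0.577% of all genes called lower. No member outside those called over all pairs was called in these other cases. Postn was called whichever of the 6 pairs was left out, Vim in 5 of the 6 cases, and Bgn and Ptn in 3. Loxl1, Twist2 and Dcn lost their call unless the pair left out was clone 10 replicate 1.

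RefSeq promoter windows, which run from 250 bases before to 50 bases after a gene's start, were at hand for 20 of the 34 members and for 5 of the 7 genes called lower. The windows of these 5 genes are shown because the genes were called with the block. Where a gene had several windows, the one nearest the gene start in the authors' tables was used. They are given 5′ to 3′ on the coding strand from build GRCm38.p6, with TATAAA and CCAAT or its reverse complement in capitals. They lie at chr3:54360857-54361156, plus strand for Postn, chr2:13574061-13574360, plus strand for Vim, chrX:73483351-73483650, plus strand for Bgn, chr6:36810130-36810429, minus strand for Ptn and chr1:91801211-91801510, plus strand for Twist2.
Postn: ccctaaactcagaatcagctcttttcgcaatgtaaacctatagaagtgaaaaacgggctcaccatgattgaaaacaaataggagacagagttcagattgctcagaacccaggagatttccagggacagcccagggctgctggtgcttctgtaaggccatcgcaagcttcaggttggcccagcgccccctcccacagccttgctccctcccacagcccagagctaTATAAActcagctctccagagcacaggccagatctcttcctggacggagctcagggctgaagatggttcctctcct
Vim: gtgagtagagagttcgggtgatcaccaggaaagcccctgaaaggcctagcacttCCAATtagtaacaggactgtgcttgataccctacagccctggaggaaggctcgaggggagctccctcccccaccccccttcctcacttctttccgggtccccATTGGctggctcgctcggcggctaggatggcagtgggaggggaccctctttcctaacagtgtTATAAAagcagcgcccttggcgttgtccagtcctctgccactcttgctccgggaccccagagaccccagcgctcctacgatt
Bgn: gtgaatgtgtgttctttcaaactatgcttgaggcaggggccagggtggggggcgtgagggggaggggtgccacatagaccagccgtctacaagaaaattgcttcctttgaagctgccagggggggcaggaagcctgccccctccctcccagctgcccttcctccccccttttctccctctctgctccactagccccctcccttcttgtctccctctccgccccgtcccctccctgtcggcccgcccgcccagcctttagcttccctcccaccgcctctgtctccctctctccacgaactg
Ptn: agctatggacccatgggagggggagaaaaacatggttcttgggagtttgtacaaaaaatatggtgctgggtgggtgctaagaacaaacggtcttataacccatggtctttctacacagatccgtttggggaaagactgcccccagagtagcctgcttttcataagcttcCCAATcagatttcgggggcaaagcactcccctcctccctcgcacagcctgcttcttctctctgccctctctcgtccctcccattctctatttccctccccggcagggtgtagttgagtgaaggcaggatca
Twist2: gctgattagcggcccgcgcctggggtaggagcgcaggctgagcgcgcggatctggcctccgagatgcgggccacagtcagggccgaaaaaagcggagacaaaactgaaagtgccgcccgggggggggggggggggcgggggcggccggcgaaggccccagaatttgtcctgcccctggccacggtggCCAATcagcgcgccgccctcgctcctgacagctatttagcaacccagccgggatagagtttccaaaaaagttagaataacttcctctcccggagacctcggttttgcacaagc

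The windows of these 5 genes did not share a motif among the 4 that were searched on both strands. The Postn window held TATAAA with its first base at -26 from the start, and the Vim window held it at -32. CCAAT was found in the windows of Vim, Ptn and Twist2, and Bgn had neither motif in this window. A second window of Postn, farther from its gene start and not shown, also held CCAAT. Over the 20 members with a window, TATAAA was in 6 (30% against 13.6% of all 32851 windows) and CCAAT in 6 (30% against 37.4%). GGAATG, the letters bound by TEAD factors, was in 3 (15% against 14.7%), those of Col3a1, Cyr61 and Prrx1. TGANTCA, the letters bound by AP-1, was in 1 (5% against 7.81%), that of Col6a1. A match is a description of these letters only.

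In the values that follow, libraries are given in the order of replicates 1 to 3, and clone 10 values joined by "against" set GFP-negative before GFP-positive libraries. Type I collagen, the main fiber of bone, skin and tendon, passed the test in neither edgeR fit over all pairs. DESeq2 with the block called its chain Col1a2. Col1a1 was at 27.7, 89.4 and 84.5 CPM in clone 4 GFP-negative replicates 1 to 3 and at 12.6, 47.1 and 35.0 CPM in the GFP-positive ones. Clone 10 held it at 7.40, 75.9 and 217 CPM in the GFP-negative and 21.3, 45.4 and 132 CPM in the GFP-positive replicates. The GFP-positive library was the lower in 5 of 6 pairs, with overlapping groups in both clones, and the log2 change was -0.64 ± 0.23 (SE) with the block (adjusted p = 0.146). Its partner chain Col1a2 ranged from 2.54 to 199 CPM with the same order within pairs (-0.84 ± 0.26 SE, adjusted p = 0.112). Without the pair of clone 10 replicate 1 both were called, at -0.93 ± 0.08 and -1.11 ± 0.10 (SE, adjusted p = 0.000328 and 0.000390).

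Col5a1 and Col5a2 encode chains of type V collagen, which sets the diameter of type I fibrils. Col5a1 was at 20.7, 90.7 and 56.0 CPM in clone 4 GFP-negative and 47.7, 59.4 and 44.1 CPM in GFP-positive replicates. The clone 10 levels were 9.95, 53.2 and 90.3 CPM in the GFP-negative and 52.4, 50 and 78.5 CPM in the GFP-positive replicates. The low values were those of both GFP-negative replicates 1, where the GFP-positive partner was higher, and the change was 0.29 ± 0.33 (SE, adjusted p = 0.574 with the block). Col5a2, from 1.08 to 48.8 CPM, had a change of -0.95 ± 0.22 (SE, adjusted p = 0.0563). Col3a1, the collagen of distensible tissue, ranged from 0.848 to 32.7 CPM (-0.99 ± 0.36 SE, adjusted p = 0.144). Both Col5a2 and Col3a1 were called without the pair of clone 10 replicate 1 (-1.13 ± 0.11 and -1.32 ± 0.16 SE, adjusted p = 0.000397 and 0.00155).

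Type VI collagen forms beaded filaments next to cells, and type XII collagen sits on the surface of fibrils. Col12a1 was at 4.47, 31.4 and 16.0 CPM in clone 4 GFP-negative and 1.92, 13.1 and 4.44 CPM in GFP-positive replicates. Its levels in clone 10 were 1.16, 18.4 and 50.1 CPM against 4.71, 9.87 and 27.2 CPM. Each of these pairs but clone 10 replicate 1 was lower in the GFP-positive library, and the groups overlapped. Col6a1 was at 6.97, 27.5 and 8.58 CPM in clone 4 GFP-negative, 5.43, 8.38 and 2.22 CPM in GFP-positive, and 1.08, 8.22 and 36.5 CPM against 8.37, 3.58 and 17.7 CPM in clone 10. It had the largest opposite difference of the members in clone 10 replicate 1, 2.58 log2 units higher in the GFP-positive library. Col6a2 ranged from 2.85 to 20.0 CPM and Col6a3 from 0.463 to 15.5 CPM, and both had clone 4 GFP-positive libraries that lay entirely below the GFP-negative ones. All 4 were uncalled by edgeR with the block over 6 pairs, at -0.80 to -1.01. Without the pair of clone 10 replicate 1 all were called, from -0.98 ± 0.16 for Col6a2 (SE, adjusted p = 0.00537) to -1.44 ± 0.15 for Col6a3 (SE, adjusted p = 0.000552). DESeq2 with the block called Col6a2 and Col12a1 over 6 pairs.

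Bgn and Dcn encode biglycan and decorin, small proteoglycans that bind collagen fibrils and growth factors of the TGF-beta family. Bgn was at 105, 352 and 109 CPM in clone 4 GFP-negative replicates and at 24.7, 93.0 and 26.9 CPM in the GFP-positive ones. In clone 10 it was at 20.8, 97.2 and 424 CPM in the GFP-negative and 35.3, 42.0 and 184 CPM in the GFP-positive replicates. The groups of clone 4 did not overlap, those of clone 10 did, and only clone 10 replicate 1 was higher in the GFP-positive library. Bgn fell by 1.36 ± 0.21 on the log2 scale with the block (SE, adjusted p = 0.0129) but was not called without it (adjusted p = 0.701). The differences within the 3 pairs of clone 4 were close, at -2.15, -1.90 and -1.93.

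Dcn was much scarcer, with 2 to 184 counts in a library. It was at 1.46, 3.49 and 5.83 CPM in clone 4 GFP-negative and at 0.0962, 1.02 and 1.11 CPM in GFP-positive replicates. Clone 10 held it at 0.154, 5.64 and 3.25 CPM against 0.471, 1.60 and 2.17 CPM. Again the groups of clone 4 were apart and those of clone 10 overlapped, and Dcn fell by 1.64 ± 0.35 with the block (log2, SE, adjusted p = 0.0440; 0.681 without it).

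Fibulins and fibrillin are glycoproteins of elastic fibers and microfibrils, and none of these members was called. Fbln1 was at 64.8, 94.8 and 40.3 CPM in clone 4 GFP-negative and 62.8, 94.9 and 34.4 CPM in GFP-positive replicates, close to equal within each pair. The clone 10 levels were 65.4, 62.2 and 104 CPM against 107, 73.6 and 132 CPM, each pair with its higher value in GFP-positive cells. Its change was 0.12 ± 0.08 (log2, SE, adjusted p = 0.354 with the block). Fbln2, in contrast, was at 37.3, 136 and 78.9 CPM in clone 4 GFP-negative, 27.8, 55.2 and 30.6 CPM in GFP-positive, and 14.8, 83.9 and 187 CPM against 45.2, 49.6 and 107 CPM in clone 10. GFP-positive cells had less of it in 5 pairs (-0.60 ± 0.27 SE, adjusted p = 0.195), and it was called without the pair of clone 10 replicate 1 (-0.92 ± 0.12 SE, adjusted p = 0.00169). Fbn1, which encodes fibrillin-1, lay between 3.24 and 46.2 CPM, and its change was -0.02 ± 0.32 (SE, adjusted p = 0.968).

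The lysyl oxidases cross-link collagen and elastin. Lox was at 31.0, 119 and 45.6 CPM in clone 4 GFP-negative and 7.31, 46.2 and 18.9 CPM in GFP-positive replicates. Its levels in clone 10 were 4.01, 55.6 and 203 CPM against 14.8, 29.5 and 118 CPM. GFP-positive cells had less Lox in 5 pairs, but edgeR did not call it over all pairs (-0.88 ± 0.29 SE, adjusted p = 0.129 with the block). EdgeR called it when clone 10 replicate 1 was left out (-1.20 ± 0.13 SE, adjusted p = 0.000662), and DESeq2 with the block called it over all pairs. Loxl1 was at 18.9, 31.1 and 15.5 CPM in clone 4 GFP-negative and 15.0, 16.7 and 8.20 CPM in GFP-positive replicates, and at 8.40, 10.8 and 56.0 CPM against 8.74, 7.38 and 33.5 CPM in clone 10. Loxl1 fell by 0.62 ± 0.12 with the block (log2, SE, adjusted p = 0.0284; 0.767 without it), the smallest change among the 7 called genes. By effective library size it was lower in 6 of 6 pairs, although the CPM of clone 10 replicate 1 were nearly equal and the groups overlapped. Loxl2, at 1.63 to 7.78 CPM, was also lower in 6 of 6 pairs by that measure. EdgeR did not call it over all pairs (adjusted p = 0.0978, and 0.0454 without clone 10 replicate 1), while DESeq2 with the block did.

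Fn1 and Sparc, the most abundant members, did not pass the test. Fn1 encodes fibronectin, to which cells attach through integrins. It was at 801, 1677 and 775 CPM in clone 4 GFP-negative and 789, 1210 and 814 CPM in GFP-positive replicates, and at 397, 1077 and 1859 CPM against 750, 935 and 1299 CPM in clone 10. Its groups overlapped, and the change was -0.09 ± 0.15 (log2, SE, adjusted p = 0.721 with the block). Sparc, a calcium-binding glycoprotein that binds collagen, was at 703, 965 and 564 CPM in clone 4 GFP-negative and 980, 861 and 500 CPM in GFP-positive replicates. In clone 10 it was at 455, 455 and 840 CPM against 603, 457 and 695 CPM, and the change was -0.01 ± 0.11 (SE, adjusted p = 0.976).

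Postn encodes periostin, a matricellular protein of connective tissue that takes part in collagen assembly. It was at 1.32, 14.1 and 10.2 CPM in clone 4 GFP-negative and 0.192, 4.21 and 2.10 CPM in GFP-positive replicates. Clone 10 held it at 0.694, 8.83 and 16.9 CPM in the GFP-negative and 0.733, 3.49 and 7.74 CPM in the GFP-positive replicates. The groups overlapped in both clones, and replicate 1 was the lowest library of every group, with counts down to 4. Within pairs, by effective library size, the differences were -2.38, -1.70 and -2.14 in clone 4 and -0.20, -1.34 and -1.14 in clone 10. Postn fell by 1.58 ± 0.19 with the block (log2, SE, adjusted p = 0.00362, and 0.757 without it). It had the smallest adjusted p of the members. Of the other glycoproteins, Thbs1 had a change of -0.46 ± 0.35 (SE, adjusted p = 0.400), and Thbs2, from 0.848 to 47.6 CPM, one of -1.18 ± 0.37 (SE, adjusted p = 0.114). Both were called without the pair of clone 10 replicate 1, at -0.89 ± 0.09 and -1.47 ± 0.20 (SE, adjusted p = 0.000433 and 0.00348). Fstl1, a secreted relative of follistatin, lay between 84.1 and 385 CPM, and its change was -0.17 ± 0.14 (SE, adjusted p = 0.434).

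The CCN proteins Ctgf and Cyr61, the YAP targets named above, were not lower in GFP-positive cells as a group. Ctgf was at 121, 69.3 and 151 CPM in clone 4 GFP-negative and 208, 53.2 and 119 CPM in GFP-positive replicates. The clone 10 levels were 42.7, 118 and 131 CPM against 148, 142 and 173 CPM, so that every GFP-positive library of clone 10 was above every GFP-negative one. The change over both clones was 0.36 ± 0.19 (log2, SE, adjusted p = 0.254 with the block). Cyr61 was at 78.2, 63.3 and 70.8 CPM in clone 4 GFP-negative, 109, 47.4 and 51.8 CPM in GFP-positive, and 12.2, 46.2 and 126 CPM against 58.6, 54.6 and 120 CPM in clone 10. It was lower in 3 of 6 pairs, with overlapping groups, and its change was 0.26 ± 0.25 (SE, adjusted p = 0.499). In a wider list of YAP and TEAD targets, 1 of 19 tested genes was called with the block, beside 0.850% of all genes called lower and 2.51% higher. The called gene was Ankrd1, which fell by 1.22 ± 0.26 (SE, adjusted p = 0.0455), and the list's median was 0.12.

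Thy1 is a surface glycoprotein of fibroblasts, T cells and neurons, and Pdgfrb the receptor through which PDGF-B drives mesenchymal cells to divide. Thy1 was at 18.8, 54.5 and 21.4 CPM in clone 4 GFP-negative, 18.5, 21.2 and 5.37 CPM in GFP-positive, and 15.3, 20.4 and 68.9 CPM against 33.0, 13.4 and 50.2 CPM in clone 10. It did not pass the test (-0.62 ± 0.26 SE, adjusted p = 0.174 with the block). Pdgfrb was at 8.98, 39.1 and 5.30 CPM in clone 4 GFP-negative, 11.1, 42.1 and 4.90 CPM in GFP-positive, and 7.71, 5.70 and 24.5 CPM against 13.5, 5.51 and 17.9 CPM in clone 10. Both libraries of clone 4 replicate 2 held its highest levels, the gates of each pair lay within 0.50 log2 units of each other, and the change was 0.04 ± 0.14 (log2, SE, adjusted p = 0.864).

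Twist1, Twist2 and Prrx1 are transcription factors of mesenchymal cells. Twist2 was at 2.69, 4.27 and 4.82 CPM in clone 4 GFP-negative and 0.433, 1.11 and 1.23 CPM in GFP-positive replicates. Its levels in clone 10 were 0.925, 4.38 and 15.0 CPM against 2.09, 2.05 and 6.31 CPM. The groups of clone 4 did not overlap, and Twist2 fell by 1.41 ± 0.28 with the block (log2, SE, adjusted p = 0.0351; 0.523 without it). Its paralog Twist1 stayed within a narrow range, at 6.93, 9.59 and 7.85 CPM in clone 4 GFP-negative, 4.38, 8.76 and 6.48 CPM in GFP-positive, and 5.01, 5.18 and 8.59 CPM against 8.27, 5 and 8.58 CPM in clone 10. The change of Twist1 was -0.12 ± 0.14 (SE, adjusted p = 0.601). Prrx1 was at 6.34, 13.3 and 10.0 CPM in clone 4 GFP-negative, 1.73, 4.84 and 2.86 CPM in GFP-positive, and 0.848, 11.2 and 38.7 CPM against 4.29, 5.30 and 20.2 CPM in clone 10. The groups of clone 4 were apart for this gene too, and its change was -1.04 ± 0.32 (SE, adjusted p = 0.114), or -1.35 ± 0.12 without clone 10 replicate 1 (SE, adjusted p = 0.000348).

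Vim encodes vimentin, the intermediate filament of mesenchymal cells, which cultured stem cells also express. It was at 179, 269 and 212 CPM in clone 4 GFP-negative and 43.5, 84.4 and 99.6 CPM in GFP-positive replicates, with no overlap. In clone 10 it was at 234, 356 and 465 CPM in the GFP-negative and 256, 290 and 232 CPM in the GFP-positive replicates, which overlapped. Vim fell by 1.05 ± 0.16 with the block (log2, SE, adjusted p = 0.0129), and its adjusted p of 0.0977 without the block was the smallest of the members there. It was also the only member called between the clones, 1.31 ± 0.23 higher in clone 10 over both gates (log2, SE, edgeR adjusted p = 0.00765), where 3.71% of all genes were called higher and 3.35% lower. Vim kept this call without each of the 12 libraries in turn, and without clone 10 GFP-negative replicate 1, Twist2 was called as well. Clone 10 replicates 2 and 3 were at passages 17 to 20 and all clone 4 libraries at 11 to 16, so clone and passage are partly confounded here.

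Ptn encodes pleiotrophin, a heparin-binding growth factor. It was at 0.274, 11.2 and 3.04 CPM in clone 4 GFP-negative and 0.192, 1.16 and 0.613 CPM in GFP-positive replicates. Clone 10 held it at 0.694, 2.73 and 7.49 CPM against 0.262, 1.81 and 2.37 CPM. The GFP-positive library was lower in every pair, the groups overlapped, and counts went down to 4 in a library. Ptn fell by 1.86 ± 0.31 with the block (log2, SE, adjusted p = 0.0171; 0.617 without it), the largest change of the members.

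**Figure D4:**
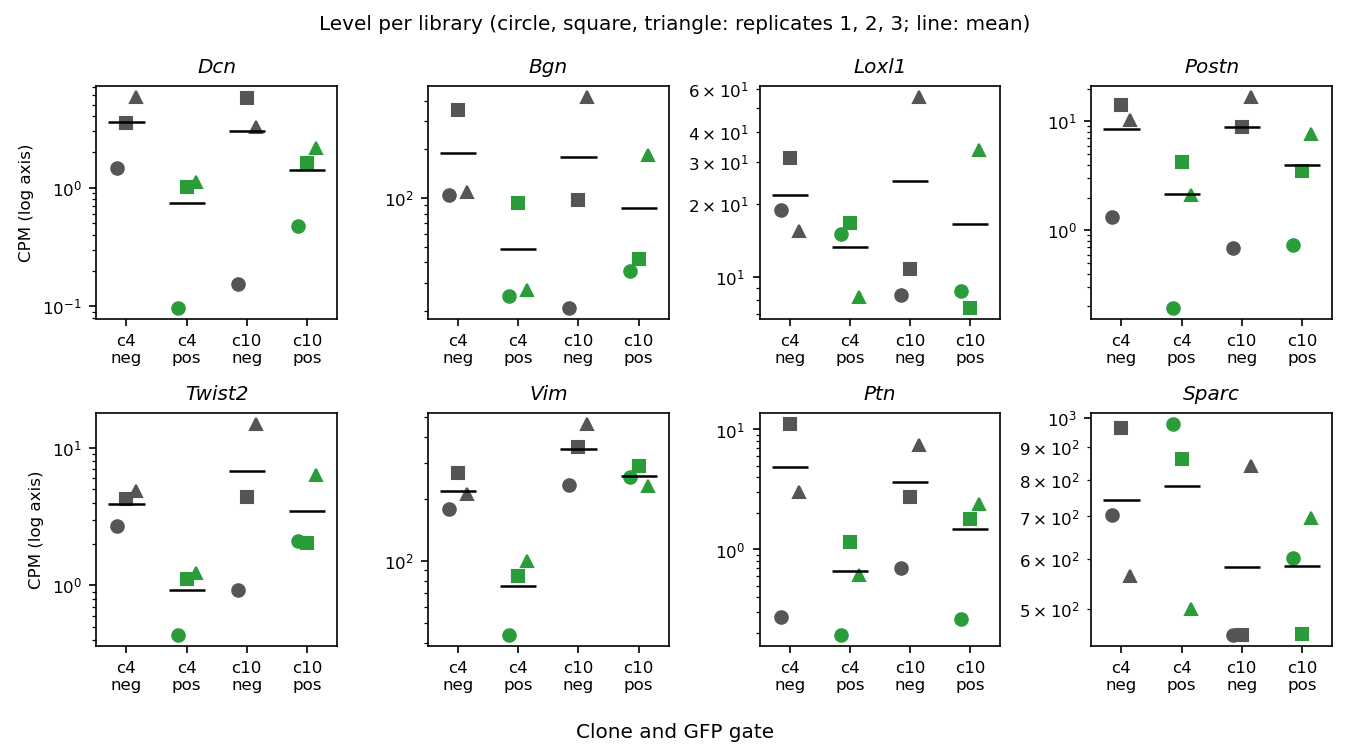
CPM of the 7 genes called lower with pairs as a block, and of Sparc, which was not called, in all 12 libraries by clone and gate on a log axis. For each of these 7 genes the GFP-positive library is the lower in most pairs, and the levels of different pairs lie far apart.

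By clone, the members' median difference between gates was -1.10 in clone 4 in both fits, and in clone 10 it was -0.67 over groups and -0.32 with the block. The order of the clones is not settled, since without the block the median of clone 4 was -0.61 without its GFP-negative replicate 2. The median of clone 10 was -1.18 without its GFP-negative replicate 1, -1.38 without its GFP-positive replicate 3 and 0.36 without its GFP-negative replicate 3. With the block it was -0.81 without the pair of replicate 1. In clone 4 no member was called over groups (3 had an unadjusted p under 0.05 in edgeR, against 1.38% of all genes, and DESeq2 called Vim, with 0.0264% of all genes called lower). With the block Postn was called, at -2.07 ± 0.27 (SE, adjusted p = 0.0492), beside 0.0461% of all genes called lower and 0.0725% higher. That call was lost without any single pair of clone 4 or the pair of clone 10 replicate 3. A fit to the libraries of clone 4 alone, with the block, called 17 members lower, beside 0.669% of all genes. The GFP-positive libraries lay entirely below the GFP-negative ones for 9 members in clone 4, against 1.89% of all genes. These were Col3a1, Col6a2, Col6a3, Dcn, Bgn, Thbs2, Twist2, Prrx1 and Vim.

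In clone 10 no member was called by edgeR in either fit. With the block 7 had an unadjusted p under 0.05, a share no higher than the 25.2% of all genes, and without it none had, against 7.44% of all genes. DESeq2 called none over groups and 2, Loxl1 and Postn, with the block (3.91% of all genes called lower). The smallest adjusted p with the block was 0.0569, for Postn, beside 0.731% of all genes called lower. No member had GFP-positive libraries of clone 10 all below the GFP-negative ones, against 5.57% of all genes. Without the pair of clone 10 replicate 1, the fit with the block called 14 members lower in clone 10 (1.12% of all genes, with 3.15% called higher) and 20 in clone 4 (0.915%, with 0.428% higher). The test of the difference between the clones' gate effects called no member by edgeR or DESeq2, with or without the block. With the block, 6 members had an unadjusted p under 0.05, against 7.69% of all genes, and the smallest adjusted p was 0.543, for Vim. Without the pair of clone 10 replicate 1 that smallest adjusted p was 0.259, and 0.00649% of all genes were called higher in that test.

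The genes that were lower in GFP-positive cells were mostly lower in the same pairs. Of the 32 members, 23 were lower in each of the 5 pairs other than clone 10 replicate 1, against 10.0% of all genes. In clone 4 alone the same 23 were lower in 3 of 3 pairs (17.8% of all genes). In clone 10, 5 members were lower in 3 of 3 pairs by effective library size, against 26% of all genes. These 5, which were Loxl1, Loxl2, Postn, Vim and Ptn, were therefore the ones lower in 6 of 6 pairs by that measure (7.29% of all genes). By CPM, Loxl1, Loxl2, Postn and Vim were slightly higher in the GFP-positive library of clone 10 replicate 1. Only Ptn was lower in every pair on both scales. In the authors' deposited tables, which test each clone alone, no member had an adjusted p under 0.05. An adjusted p was given for 30 members in clone 4 and 33 in clone 10, and 8 and 418 of all genes were under 0.05. Below 0 were 31 of 34 members in clone 4 (median log2 fold change -0.53) and 29 of 34 in clone 10 (median -0.32). These fold changes were smaller than those fitted here, such as -0.67 against -2.82 over groups for Ptn in clone 4. Their sizes are therefore not comparable with the changes given above.

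Other genes of the same cells and matrix gave the setting for these values. Of 24 tested further fibroblast markers, 6 were called lower with the block and none higher, beside 0.850% of all genes lower and 2.51% higher. The list's median was -0.72. The 6 were Timp1, an inhibitor of matrix proteases (-0.87 ± 0.09 SE, adjusted p = 0.00167), Tagln and Acta2, which belong to the contractile cytoskeleton (-1.26 ± 0.17 and -1.88 ± 0.26 SE), S100a4, Prrx2 and Dpt. Without the block none of the 24 was called. Their summed level was 496 to 894 CPM in clone 4 GFP-negative, 312 to 533 CPM in clone 4 GFP-positive, 305 to 986 CPM in clone 10 GFP-negative and 407 to 683 CPM in clone 10 GFP-positive libraries. Dpt, Meox1 and Tcf21 of this list were under 1 CPM in every library. The part that such cells, or the stem cells themselves, had in these counts was not tested.

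Among 19 tested genes of the basement membrane, which stem cells and endoderm secrete, none was called with or without the block, and with it 6 were below 0 and the median was 0.15. Of 36 other interstitial matrix genes only the elastic fiber gene Efemp2 was called, and it fell by 0.81 ± 0.10 (log2, SE, adjusted p = 0.00348 with the block). In that list 20 of 36 genes were below 0 and the median was -0.14, and no test compared the lists. Of 22 collagen processing enzymes, P4ha2, a prolyl hydroxylase subunit, rose by 1.27 ± 0.15 (SE, adjusted p = 0.00304), and Pcolce, which aids removal of the collagen propeptide, fell by 0.47 ± 0.10 (SE, adjusted p = 0.0398). Tgfb1 and Smad7 fell among 15 genes of the TGF-beta pathway (-0.55 ± 0.11 and -0.43 ± 0.10 SE, adjusted p = 0.0375 and 0.0492). Without the block none of these 5 genes was called, with adjusted p of 0.389 to 0.778. With the block, 0.850% of all genes were called lower and 2.51% higher. The 12 stem cell markers summed to 6365 to 11674 CPM and none was called, though 11 of them were below 0 in GFP-positive cells in both fits, with a median of -0.22. Of the 9 macrophage markers, Ptprc, Csf1r, Emr1, Fcgr1 and Lyz2 were under 1 CPM in every library. The other 4 were tested, with 2 below 0 and none called, and Mrc1 among them reached 6.65 CPM. The list summed to 28.9 to 90.3 CPM in a library.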

How the data were processed

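Counts were deposited by the authors as whole-number read counts per gene with no normalization. The submitters' processing notes name the mm10 build, the aligner STAR 2.3.0e, the counter HTSeq 0.6.0 and the packages DESeq and DESeq2. Neither strand setting nor annotation release is given in the sources used here, so overlapping and antisense genes cannot be told apart. The authors' deposited tables, one per clone, hold per the file headers the same counts, a signal (counts scaled by library size factors), log2 fold changes, a score (their ratio to the standard error) and raw and adjusted p-values. Their count columns were identical to the count table.

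Symbols came from those tables. Counts were tested with edgeR 4.0.16 in R 4.3.3 by its quasi-likelihood test with robust dispersions and TMM scaling (limma 3.58.1 loaded with it). Its default filter required about 10 counts in a library of median size for a group's number of libraries and 15 counts in total. That kept 15179 genes. Benjamini-Hochberg adjustment ran over all of them, and a gene counted as called below 0.05. Adjusted p-values are edgeR's unless another tool is named. The fit over groups, with 1 term for each, left 8 residual degrees of freedom (biological coefficient of variation 0.389). The replicate numbers of the labels were taken to pair the gates within a clone, although 5 of the 6 pairs differ by 1 passage on the labels. Within a clone, deviations from the group means correlated at 0.548 to 0.822 for same-numbered libraries of the 2 gates and at -0.541 to -0.228 for other numbers. The deviations of a group cancel out, so positive values for same numbers force some negative ones among the other numbers. Between the clones, same-numbered libraries correlated at -0.425 to 0.588 and other numbers at -0.448 to 0.683. Some pairs of different clones thus also varied together. The fit with these 6 pairs as a block left 4 residual degrees of freedom (coefficient 0.175) and was an alternative to the fit without it. DESeq2 1.42.0 was run beside both. The scripts were tested on simulated data.

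CPM use the library's total count. Log2 CPM and differences within pairs use TMM effective library sizes and a prior count of 2, so that small CPM differences can change sign between the scales. Exon lengths came from GENCODE vM21 and promoter windows from RefSeq. Values per library were printed for the 2 members with the highest mean CPM of each class, for every CCN, cytoskeletal and growth factor member and for every called member. From each list of other genes, called genes and those with the smallest p within pairs could be named. Thbs1 was singled out for its span after its values were seen. The members and the lists were chosen with earlier results of these data known.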

Additional observations from a re-analysis of the deposited data

How the results depend on the processing

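The number of members called depended on how the pairing of libraries was treated. For the mean of both clones it was 0 over groups, 1 with DESeq2, 7 with the replicate block, 9 with the replicate block and no filter, and 14 with DESeq2 and the replicate block. For clone 4 the same settings gave 0, 1, 1, 5 and 12, and 17 with only that clone's libraries and the replicate block. For clone 10 DESeq2 with the replicate block gave 2, the replicate block without a filter 1, and the others 0. Leaving out single libraries without the block gave 0 to 1 called members for both clones, 0 for either clone and 1 to 2 between the clones. Leaving out pairs with the block gave 2 to 21 for both clones, 0 to 20 in clone 4 and 0 to 14 in clone 10. Each upper value was reached without clone 10 replicate 1. Without clone 4 replicate 2 the block gave 3 for both clones (0.233% of all genes called lower). Without clone 10 replicate 2 it gave 3 in clone 4 (0.104%). The difference between the clones' gate effects stayed at 0 called members under every setting run. Other size factors and no filter, both without the block, changed none of these counts of calls. The members' median for clone 10 turned to 0.36 without its GFP-negative replicate 3 and, with the block, to 0.01 and 0.06 without the pairs of replicates 2 and 3. DESeq2 with the replicate block called 3.59% of all genes lower for both clones and 0.619% in clone 4. Besides the 7 that edgeR called with the block, it called Col1a2, Col5a2, Col6a2, Col12a1, Lox, Loxl2 and Prrx1 for both clones. The replicate block without a filter called 0.915% of all genes lower for both clones, 0.218% in clone 4 and 0.837% in clone 10. The members that this setting added for both clones were Col5a2 and Col6a2. Signs of single members turned where the change was near 0. Fbn1 moved to 0.03 with DESeq2 and the replicate block, and Sparc to 0.00 with the replicate block and no filter. Leaving out single libraries gave log2 changes of -0.19 to 0.33 for Col5a1, -0.06 to 0.28 for Fbln1, -0.54 to 0.08 for Fbn1, -0.37 to 0.04 for Fn1, -0.10 to 0.11 for Sparc, -0.09 to 0.61 for Cyr61, -0.62 to 0.63 for Pdgfrb and -0.21 to 0.03 for Twist1. Leaving out pairs with the block gave -0.05 to 0.50 for Col5a1, -0.38 to 0.23 for Fbn1 (0.12 without clone 4 replicate 2), -0.26 to 0.03 for Fn1, -0.09 to 0.05 for Sparc, -0.03 to 0.47 for Cyr61 and -0.09 to 0.16 for Pdgfrb. The cause of these changes was not tested. Members with few counts, such as Ptn, Postn and Dcn at 2 to 4 counts in their lowest library, were the least precise, and Lum and Fap could not be tested at this depth.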

Other observations

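Single genes of other lineages were called in either direction with the block, where 0.850% of all genes were called lower and 2.51% higher. Tie1, a receptor of endothelial cells, rose by 2.70 ± 0.40 with the replicate block (log2, SE, edgeR adjusted p = 0.0104; 0.0670 without the block) and every pair had more of it in GFP-positive cells, from 6.48 against 2.39 CPM in clone 4 replicate 3 to 305 against 20.7 CPM in clone 10 replicate 1. Of 6 tested endothelial markers Tie1 was the only one called and 3 were below 0. Emcn and Erg of that list were under 1 CPM in every library. Sox10, a neural crest factor, rose by 1.11 ± 0.22 (SE, adjusted p = 0.0356 with the block, 0.670 without it) at 0.617 to 8.07 CPM. Of 6 tested neural and neural crest markers no other was called. Krt5, a keratinocyte marker at 0.0484 to 6.59 CPM, rose by 1.49 ± 0.32 (SE, adjusted p = 0.0461 with the block, 0.757 without it), though it was lower in 2 of 6 pairs. Among 12 parietal endoderm markers only Thbd was called, and it fell by 0.97 ± 0.21 (SE, adjusted p = 0.0456 with the block; 0.737 without it).

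Sphk1 was highest in clone 10 GFP-negative replicate 3, at 4.30 CPM. In that library 25 of the 32 tested matrix genes were highest by log2 CPM on effective library sizes. Sphk1 was lowest in clone 10 GFP-negative replicate 1, at 0.694 CPM, the library in which 16 of those genes were lowest by that scale. It was nearly as low in clone 4 GFP-positive replicate 3, at 0.701 CPM. Clone 4 GFP-positive replicate 1, which was lowest for a further 7 of those genes, held Sphk1 at 2.02 CPM. The gates of the Sphk1 levels overlapped, and whether these levels are related was not tested.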
